A study of Mus musculus with 6 samples.

Results

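Phosphoinositide 3-kinases (PI3K), the kinase Akt and the lipid phosphatases that oppose them were followed here through 9 genes among the 54532 genes listed in an RNA-seq series of mouse macrophages. The 9 were named by the function of their products, with earlier results of these data already known. They are the 4 catalytic subunits of class I PI3K (Pik3ca, Pik3cb, Pik3cd and Pik3cg), the regulatory subunits Pik3r1 and Pik3r5, the adaptor Pik3ap1, the kinase Akt1 and the lipid phosphatase Inpp5d. All 9 passed the filter on low values, a level of 1 TPM or more in 2 or more of the 6 libraries, which 12755 genes passed.

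Class I PI3K adds a phosphate to a membrane phosphoinositide, and the lipid it makes recruits Akt and other kinases to the membrane. The alpha and beta catalytic subunits (Pik3ca, Pik3cb) are made in most tissues, whereas the delta and gamma subunits (Pik3cd, Pik3cg) are enriched in leukocytes. The phosphatase SHIP1, the product of Inpp5d, removes a phosphate from the lipid that PI3K makes, and in macrophages this pathway is known to restrain as well as to carry signals from the LPS receptor TLR4.

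The samples were bone-marrow-derived macrophages (BMDMs) of C57BL/6 mice, grown from marrow in medium conditioned by L929 cells, with 2 libraries in each of 3 groups. BMDMs were left untreated, were given lipopolysaccharide (LPS), an outer membrane glycolipid that Gram-negative bacteria carry, at 100 ng/ml for 2 h, or had 6 h of metformin at 5 mM before the same LPS (Met + LPS). Metformin is a drug for type 2 diabetes that inhibits complex I of the mitochondrial respiratory chain, and the study asked how it alters the early transcript response to LPS. No group received metformin without LPS, so that a difference between Met + LPS and LPS cannot be divided into an effect on resting cells and an effect on the LPS response. The paper says that the cells were seeded in duplicate. The sources used here do not say whether the duplicates came from separate mice. The p-values thus measure the spread between these samples, which may be technical.

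Levels are given in TPM, a unit that divides the reads of a gene by its length and gives all libraries an equal sum, so that levels of different genes can be compared. Differences are log2 fold changes of TPM + 1 with their standard error (SE), tested with limma across all 12755 genes with Benjamini-Hochberg adjustment, and a gene rose or fell where the adjusted p-value was under 0.01. With 2 libraries against 2, the smallest two-sided p-value of an exact permutation test for a single value is 0.333, so that calls rest on the spread that limma pools over genes. Where levels of groups are said not to overlap, TPM as deposited is meant. The share of all genes whose groups do not overlap was not counted. From the TPM values, between 25448763 and 30757665 reads per library were recovered, and the 9 genes had between 922 and 32790 reads in a library. Macrophage markers were present (8 of 8 at 1 TPM or more), with a summed level of 44621 to 46599 TPM in untreated, 37412 to 37903 TPM in LPS and 30877 to 30948 TPM in Met + LPS libraries, most of it Lyz2. None of the T cell, fibroblast or erythroid markers reached 1 TPM. Of the B cell markers, Cd79b alone did. The 6 neutrophil markers summed to 27.7 to 30.9 TPM in untreated, 24.5 to 26.2 TPM in LPS and 40.8 to 42.4 TPM in Met + LPS libraries, with the defining marker Ly6g at 0 in 5 of the 6. The 4 endothelial markers summed to 25.9 to 27.0, 21.3 to 23.6 and 32.3 to 34.0 TPM in the same order, nearly all of it Kdr, with Emcn at 0 in every library. The part of other cells in the results was not tested, and in bulk samples fewer cells of a type and less RNA per cell cannot be told apart.

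The 4 catalytic subunit genes did not move together. With LPS, Pik3ca and Pik3cb rose and Pik3cd and Pik3cg fell, although Pik3cd did not pass after the libraries were rescaled to a common median of gene-wise ratios (-0.03, adjusted p = 0.731). From LPS to Met + LPS, Pik3cb rose and Pik3ca, Pik3cd and Pik3cg fell. The DNA just before the RefSeq start sites of these 4 genes is shown because it ranges from GC-rich to AT-rich. Each line gives the last 110 bases before the start site, from RefSeq, build GRCm38.p6, written 5′ to 3′ on the strand of the gene, with GC boxes (GGGCGG, searched on both strands) in capitals.
Pik3ca (chr3:32396955-32397064, plus strand): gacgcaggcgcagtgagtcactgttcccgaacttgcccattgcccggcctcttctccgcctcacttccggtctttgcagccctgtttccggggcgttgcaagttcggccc
Pik3cb (chr9:99140212-99140321, minus strand): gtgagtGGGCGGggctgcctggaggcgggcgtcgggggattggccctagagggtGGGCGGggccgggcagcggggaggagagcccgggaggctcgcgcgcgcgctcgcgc
Pik3cd (chr4:149698709-149698818, minus strand): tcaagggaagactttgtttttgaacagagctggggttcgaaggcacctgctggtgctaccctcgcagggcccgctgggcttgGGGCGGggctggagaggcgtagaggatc
Pik3cg (chr12:32208660-32208769, minus strand): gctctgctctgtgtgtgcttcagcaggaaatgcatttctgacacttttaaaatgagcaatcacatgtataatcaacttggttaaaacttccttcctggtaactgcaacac

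Over the 250 bases before the start site, GC content was 61.6% for Pik3ca and 78.0% for Pik3cb, against 53.6% for Pik3cd and 38.8% for Pik3cg. The median of all 32841 windows of this length was 52.4%. The window of Pik3cb held 32 CpG dinucleotides and that of Pik3ca 19, against 6 in Pik3cd, 3 in Pik3cg and a median of 6. Of the genes in the windows shown, Pik3cd has 3 RefSeq start sites and Pik3cg 2, and the one nearest to the 5′ end of the gene in the files was used. The start sites of Pik3cb and Pik3cd lie inside the gene as the files place it, and that of Pik3ca lies upstream of it. Among the other 5 genes, GC content was 52.0% for Akt1, 54.4% for Inpp5d, 61.6% for Pik3r5, 71.2% for Pik3ap1 and 76.4% for Pik3r1. Akt1 and Pik3r1 have 2 RefSeq start sites each, and the site was chosen in the same way. For LPS vs. untreated, GC content was 61.6% to 78.0% in the 4 genes that rose and 38.8% to 54.4% in the 4 that fell. After rescaling, the calls of Pik3cd and Akt1 were lost, and Pik3ap1, at 71.2%, rose as well. From LPS to Met + LPS, Pik3cb and Pik3r1 rose, whereas Pik3ca, Pik3r5 and Pik3ap1 fell, as did Pik3cd and Pik3cg. A link between base composition and direction was not tested, and the GC content of all genes that rose or fell was not computed. The GC box, which Sp1-type factors bind, was present in 32.7% of all windows and in 5 of the 9, with 4 copies each in Pik3r1 and Pik3r5. The NF-kappaB consensus was found in 3.90% of windows and of these genes in Pik3r1, and the AP-1 motif TGANTCA was found in 6.75% of windows and of these genes in Pik3ca. AGAGGAAG, a site of the type that the ETS factor PU.1 binds, was in 3.67% of windows and TATAAA in 12.4%, and neither run of letters was in any of the 9 windows. Such matches describe the sequence and were not tied to binding in these data.

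Pik3cd encodes the delta catalytic subunit and lies on chromosome 4 (149649168 to 149702571, minus strand, GRCm38, ENSMUSG00000039936). Its level was 76.4 and 78.8 TPM in the untreated libraries, 50.4 and 58.1 TPM in the LPS libraries and 27.5 and 25.2 TPM in the Met + LPS libraries. In TPM as deposited the 3 groups did not overlap, and the LPS libraries differed more from each other than the libraries of the other groups did. After median-ratio rescaling the untreated and LPS libraries overlapped. From LPS to Met + LPS the mean fell from 54.2 ± 5.42 to 26.4 ± 1.67 TPM (SD, n = 2), a log2 fold change of -1.01 (SE 0.08, adjusted p = 1.2e-04). Leaving out any of the 4 libraries gave -1.11 to -0.91, and of the 12755 genes 1.73% lay lower in this comparison. From untreated to LPS, Pik3cd fell by 0.51 on the log2 scale (adjusted p = 6.5e-04). This call rested on the scaling of the libraries, as described below, and on untreated replicate 2, without which the log2 fold change was -0.49 and the adjusted p 0.0113.

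Pik3cg encodes the gamma subunit, which G protein-coupled receptors activate, and lies on chromosome 12 (32173473 to 32208659, minus strand, ENSMUSG00000020573). Its level was 45.0 and 47.7 TPM in untreated, 20.6 and 19.5 TPM in LPS and 14.5 and 12.6 TPM in Met + LPS libraries. Each library of a later group was below each library of the group before. The log2 fold change was -1.17 (SE 0.07, adjusted p = 1.2e-05) for LPS vs. untreated and -0.54 (SE 0.07, adjusted p = 0.00143) for Met + LPS vs. LPS. Without LPS replicate 1 the second of these was -0.50 with an adjusted p of 0.0124, which no longer passed.

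Pik3cb encodes the beta subunit and lies on chromosome 9 (99036654 to 99140621, minus strand, ENSMUSG00000032462). Its level was 48.9 and 49.6 TPM in untreated, 68.9 and 72.2 TPM in LPS and 90.5 and 87.2 TPM in Met + LPS libraries. The groups did not overlap, and the order was the reverse of that of Pik3cd and Pik3cg. The log2 fold change was 0.51 (SE 0.04, adjusted p = 3.3e-05) for LPS vs. untreated and 0.33 (SE 0.04, adjusted p = 9.4e-04) for Met + LPS vs. LPS. Of the stretches of 31 bases in its exons, 94.02% occur in no other gene, against at least 98.9% for the other 8 genes. A small share of its reads could thus fit other genes as well, and how such reads were counted was not examined.

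Pik3ca encodes the alpha subunit, which is often mutated in tumours, and lies on chromosome 3 (32397671 to 32468486, plus strand, ENSMUSG00000027665). Its level was 37.8 and 38.0 TPM in untreated, 47.7 and 46.3 TPM in LPS and 41.0 and 39.6 TPM in Met + LPS libraries. It was highest in the LPS libraries, and the Met + LPS libraries lay between the other groups without overlap. Pik3ca rose with LPS (log2 fold change 0.30, SE 0.04, adjusted p = 3.9e-04). The difference between Met + LPS and LPS was -0.22 (SE 0.04, adjusted p = 0.00509), and its adjusted p-value was 0.0141 to 0.0305 when any of the 4 LPS and Met + LPS libraries was left out, so that the call did not hold without each of them.

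**Figure D1:**
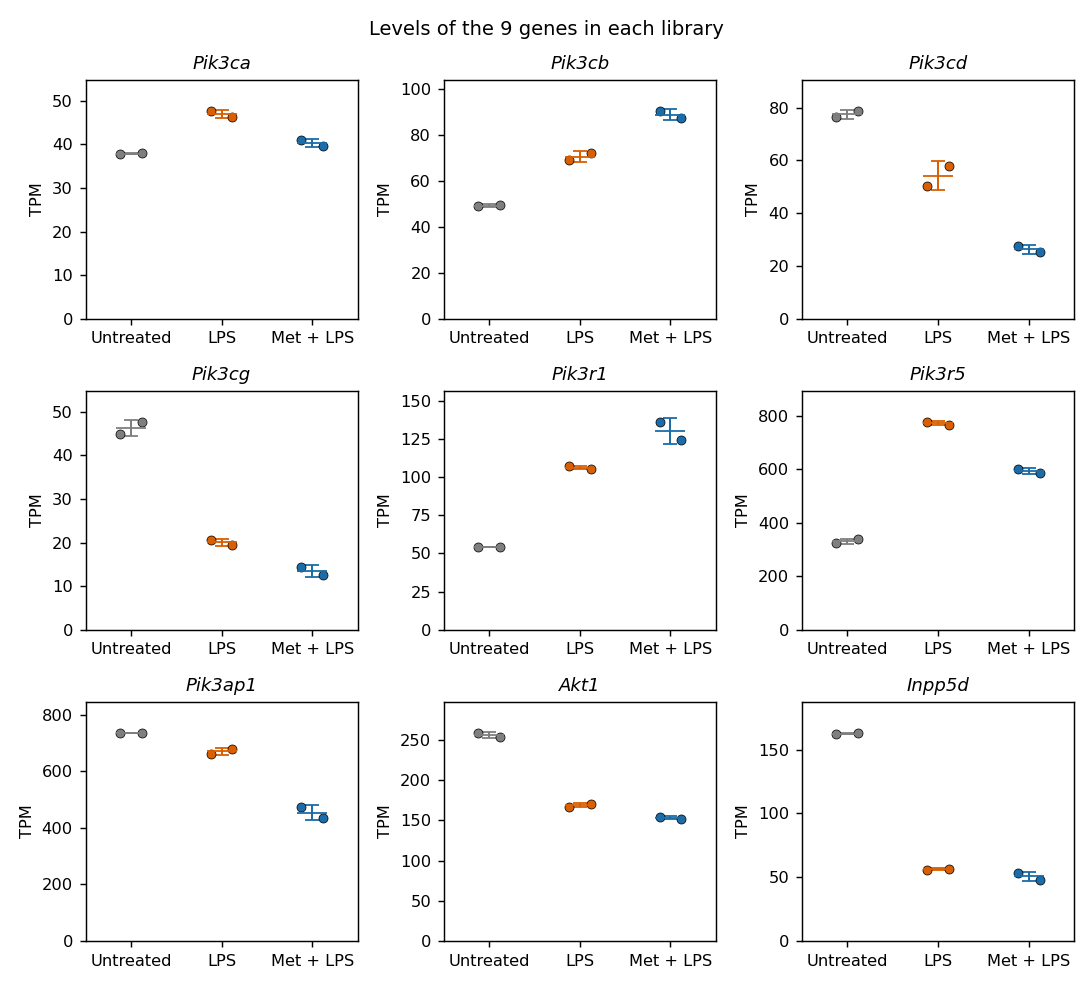
Level of each of the 9 genes in TPM (y axis, from 0, scaled for each gene) in the 2 untreated, 2 LPS and 2 Met + LPS libraries, with points for libraries, a horizontal line for the mean and bars for the SD. Pik3cd falls from 76.4 and 78.8 TPM in untreated to 27.5 and 25.2 TPM in Met + LPS libraries, whereas Pik3cb rises from 48.9 and 49.6 to 90.5 and 87.2 TPM.

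Shares within a library do not depend on how libraries were scaled to each other. Of the summed TPM of the 4 catalytic subunit genes, Pik3cd made up 36.7% and 36.8% in the untreated, 26.9% and 29.6% in the LPS and 15.9% and 15.3% in the Met + LPS libraries. Pik3cb made up 23.5% and 23.2%, then 36.7% and 36.8%, then 52.2% and 53.0%. Pik3cd thus had the largest share in untreated and Pik3cb in LPS and Met + LPS libraries. The ratio of Pik3cb to Pik3cd was 0.640 and 0.630 in untreated, 1.37 and 1.24 in LPS and 3.29 and 3.46 in Met + LPS libraries. Pik3cd and Pik3cg together went from 58.3% and 59.1% to 37.9% and 39.6% and to 24.2% and 22.9%. The sum of the 4 genes, which does depend on scaling, was 208 and 214 TPM in untreated, 188 and 196 TPM in LPS and 173 and 165 TPM in Met + LPS libraries. After median-ratio rescaling, an alternative chosen for this sum after seeing the data, it was 165 and 169, 208 and 218, and 194 and 184 TPM, so that the untreated libraries went from highest to lowest. Groups did not overlap in any of these shares except that of Pik3ca, which was 18.2% and 17.8% in untreated, 25.4% and 23.6% in LPS and 23.6% and 24.1% in Met + LPS libraries.

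**Figure D2:**
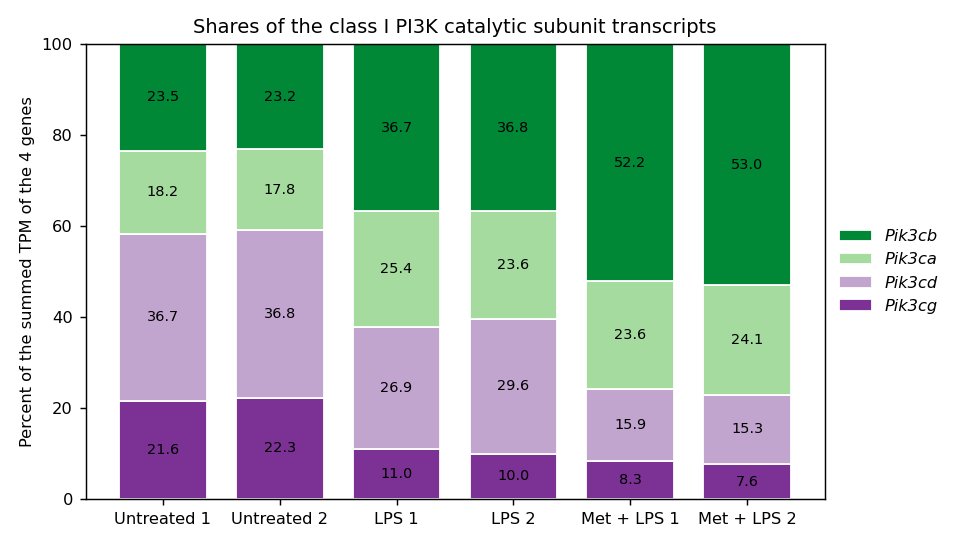
Percent of the summed TPM of the 4 class I PI3K catalytic subunit genes (y axis) that each gene made up in each of the 6 libraries (x axis), as stacked bars with the percentages printed in them. The share of Pik3cb grows from 23.5% and 23.2% in untreated to 52.2% and 53.0% in Met + LPS libraries, and that of Pik3cd shrinks from 36.7% and 36.8% to 15.9% and 15.3%.

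Pik3r5 encodes the regulatory subunit that couples the gamma catalytic subunit to G protein-coupled receptors and lies on chromosome 11 (68432121 to 68497849, plus strand, ENSMUSG00000020901). Its level was 324 and 338 TPM in untreated, 776 and 766 TPM in LPS and 599.7 and 585 TPM in Met + LPS libraries. The LPS libraries were highest, the Met + LPS libraries lay between the other groups, and no groups overlapped. Pik3r5 rose with LPS by the largest log2 fold change of the 9 genes, 1.22 (SE 0.03, adjusted p = 2.8e-07), and was lower in Met + LPS than in LPS libraries (-0.38, SE 0.03, adjusted p = 2.3e-04). Its catalytic partner Pik3cg fell in both comparisons, and the ratio of Pik3r5 to Pik3cg was 7.20 and 7.09 in untreated, 37.6 and 39.2 in LPS and 41.4 and 46.6 in Met + LPS libraries. Pik3r5 made up 78.3% and 78.5%, 84.2% and 84.3%, and 78.6% and 79.5% of the summed TPM of the 5 regulatory subunit genes in the same order.

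Pik3r1 encodes the regulatory subunit that stabilises the alpha, beta and delta catalytic subunits and docks them on phosphorylated tyrosines, and lies on chromosome 13 (101680563 to 101768217, minus strand, ENSMUSG00000041417). Its level was 54.0 TPM in each untreated library, 107 and 105 TPM in the LPS libraries and 136 and 124 TPM in the Met + LPS libraries. It was lowest in untreated and highest in Met + LPS libraries without overlap. Pik3r1 rose with LPS (log2 fold change 0.96, SE 0.05, adjusted p = 3.9e-06) and was higher again in Met + LPS than in LPS libraries (0.29, SE 0.05, adjusted p = 0.00315). The second call was lost without LPS replicate 1 (adjusted p = 0.0170), LPS replicate 2 (0.0223) or Met + LPS replicate 1 (0.0101). The ratio of Pik3r1 to the summed TPM of its partners Pik3ca, Pik3cb and Pik3cd was 0.331 and 0.324 in untreated, 0.641 and 0.597 in LPS and 0.855 and 0.817 in Met + LPS libraries.

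Pik3ap1 encodes BCAP, an adaptor that binds PI3K and is known to damp signalling from Toll-like receptors, and lies on chromosome 19 (41274218 to 41385070, minus strand, ENSMUSG00000025017). Its level was 734 TPM in each untreated library, 662 and 678 TPM in the LPS libraries and 472 and 436 TPM in the Met + LPS libraries. The Met + LPS libraries were lowest, with no overlap. Pik3ap1 fell from LPS to Met + LPS by 0.56 on the log2 scale (SE 0.04, adjusted p = 1.3e-04). For LPS vs. untreated the value was -0.13 (SE 0.04, adjusted p = 0.0255), which did not pass the test. The decrease passed with limma on only the 2 groups compared (adjusted p = 0.0085). It also passed with limma voom on reads recovered from the TPM values (-0.11, adjusted p = 0.0051). The value turned to 0.36 (adjusted p = 4.0e-04) once libraries were rescaled by the median ratio over genes.

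Akt1, on chromosome 12 (112653821 to 112674884, minus strand, ENSMUSG00000001729), encodes the kinase that the lipid product of PI3K brings to the membrane. Its level was 258 and 254 TPM in untreated, 167 and 171 TPM in LPS and 155 and 152 TPM in Met + LPS libraries. The untreated libraries were above the others in TPM as deposited, and the LPS and Met + LPS libraries lay close together without overlap. Akt1 fell with LPS by 0.60 on the log2 scale (SE 0.03, adjusted p = 5.0e-06), a call that was lost after rescaling (-0.11, adjusted p = 0.0183). The difference between Met + LPS and LPS was -0.14 (SE 0.03, adjusted p = 0.0121), which did not pass. This difference passed with limma voom on reads recovered from the TPM values (adjusted p = 0.00493) and with a filter of 5 TPM (0.00951). With voom plus median-ratio scaling it did not pass (adjusted p = 0.0140).

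Inpp5d, on chromosome 1 (87620312 to 87720507, plus strand, ENSMUSG00000026288), encodes SHIP1, a 5-phosphatase of blood cells. Its level was 162 and 163 TPM in untreated, 55.6 and 56.6 TPM in LPS and 53.2 and 48.0 TPM in Met + LPS libraries. Each LPS and Met + LPS library had less than any untreated library by a wide margin. Inpp5d fell with LPS by 1.52 on the log2 scale (SE 0.05, adjusted p = 7.8e-07), the largest decrease of the 9 genes in this comparison, to 0.345 of the untreated mean. Met + LPS and LPS libraries differed by -0.15 (SE 0.05, adjusted p = 0.0582), which did not pass the test. This difference passed with limma voom on the recovered reads (adjusted p = 0.00902). With voom plus median-ratio scaling it did not pass (adjusted p = 0.0237). The ratio of Inpp5d to the summed catalytic subunits was 0.780 and 0.761 in untreated, 0.296 and 0.289 in LPS and 0.307 and 0.292 in Met + LPS libraries, so that it was lower in each LPS-treated library than in either untreated one.

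Counts of calls among the 9 genes are read against those among all 12755 genes. For LPS vs. untreated, 4 of the 9 rose (Pik3ca, Pik3cb, Pik3r1 and Pik3r5), where 16.2% of all genes rose, and 4 fell (Pik3cd, Pik3cg, Akt1 and Inpp5d), where 60.1% of all genes fell. For Met + LPS vs. LPS, 2 rose (Pik3cb and Pik3r1) against 14.5% of all genes, and 5 fell (Pik3ca, Pik3cd, Pik3cg, Pik3r5 and Pik3ap1) against 18% of all genes. For Met + LPS vs. untreated, 3 rose against 16.3% and 5 fell against 58.8% of all genes. The comparisons with LPS and with untreated share libraries, so their values are set side by side and not correlated. The study's cut-offs add a minimum absolute log2 fold change of 2 for LPS vs. untreated, which 6.08% of all genes and 0 of the 9 passed, and of 0.7 for Met + LPS vs. LPS, which 8.28% of all genes and of the 9 only Pik3cd passed.

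TPM values have an equal sum in all libraries. The median log2 fold change of all tested genes was -0.48 for LPS vs. untreated, -0.03 for Met + LPS vs. LPS and -0.48 for Met + LPS vs. untreated. The medians of the 9 genes were -0.13, -0.22 and -0.69. With libraries rescaled by the median of gene-wise ratios, the medians of all genes were -0.05, -0.02 and -0.04 and those of the 9 were 0.36, -0.21 and -0.20. For LPS vs. untreated, 5 of the 9 then rose, against 29.1% of all genes, and 2 fell, against 29.5%. Pik3cg (-0.69, adjusted p = 2.0e-04) and Inpp5d (-1.03, adjusted p = 5.3e-06) still fell, whereas Pik3cd (-0.03, adjusted p = 0.731) and Akt1 (-0.11, adjusted p = 0.0183) did not pass, and Pik3ap1 joined the 4 that rose. For Met + LPS vs. LPS, 2 rose against 15.3% and 5 fell against 17.8% of all genes, as without rescaling. For Met + LPS vs. untreated, 4 rose against 31.4% and 5 fell against 32.2% of all genes, with Pik3cd at -1.04 and Pik3cb at 1.32.

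**Figure D3:**
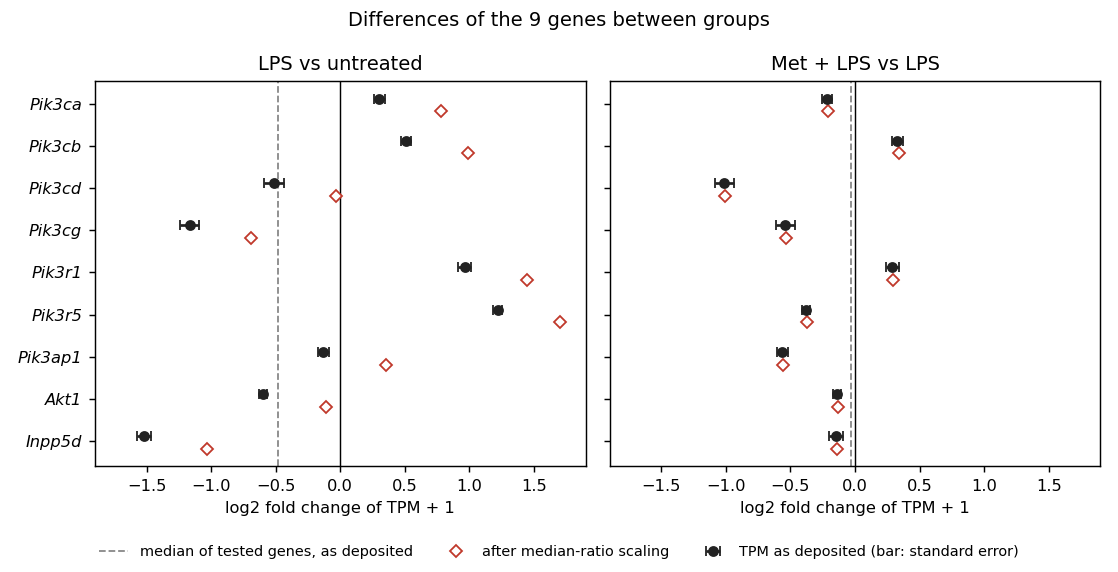
Log2 fold change of TPM + 1 (x axis) of the 9 genes for LPS vs. untreated on the left and Met + LPS vs. LPS on the right, with filled points for TPM as deposited, bars for the SE, open diamonds for values after rescaling and a dashed line for the median of all tested genes. Rescaling moves every gene up on the left, where that median is -0.48, and leaves the right panel nearly as it was, with Pik3cd lowest at -1.01.

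The order of the levels changed with treatment. In untreated libraries it ran Pik3ap1, Pik3r5, Akt1, Inpp5d, Pik3cd, Pik3r1, Pik3cb, Pik3cg and Pik3ca from high to low. In LPS libraries it ran Pik3r5, Pik3ap1, Akt1, Pik3r1, Pik3cb, Inpp5d, Pik3cd, Pik3ca and Pik3cg, where Inpp5d and Pik3cd overlapped and no other neighbours did. In Met + LPS libraries the order was that of the LPS libraries except that Pik3ca stood above Pik3cd. The ratio of the adaptor Pik3ap1 to Pik3cd was 9.61 and 9.31 in untreated, 13.1 and 11.7 in LPS and 17.1 and 17.3 in Met + LPS libraries.

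For each of the 9 genes, the 2 genes with the most similar pattern were taken, as the smallest root mean square (RMS) difference of centred log2(TPM + 1) over the 6 libraries among 12754 genes. Inpp5d had the closest match of the 9, Cep250 at 0.012, followed by Mfsd11 at 0.024. Akt1 was nearest to Peak1 (0.018) and Tmed4 (0.019), and Pik3ca to Tmco3 (0.018) and Ankrd28 (0.022). Pik3r5 was nearest to Rnf114 (0.024) and Wdr43 (0.033), Pik3r1 to Gna13 (0.026) and Slc38a1 (0.039), and Pik3cb to Abl2 (0.028) and Btg1 (0.040). Pik3cd was nearest to Gamt (0.032) and Clec4a3 (0.052), Pik3ap1 to Car5b (0.032) and Ly86 (0.038), and Pik3cg to Tmem198b (0.041) and Nudt1 (0.045). None of the 9 was among the 2 nearest genes of another. With only 2 of 12754 genes kept for each, this says little about how alike the 9 are.

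Around the 9 genes, 83 further genes of phosphoinositide signalling were listed by function, of which 79 were tested. For LPS vs. untreated 18 rose, 46 fell and 15 did not pass, with a median of -0.46 against -0.48 for all genes, of which 16.2% rose and 60.1% fell. After rescaling 32 rose and 23 fell, against 29.1% and 29.5% of all genes. For Met + LPS vs. LPS 16 rose, 20 fell and 43 did not pass, with a median of -0.03, the same as for all genes, of which 14.5% rose and 18% fell. The counts of the separate lists that follow are small and are to be read against these shares. The medians of the listed genes were thus close to those of all genes in both comparisons.

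Among regulatory subunits and adaptors (7 tested, Pik3r1, Pik3r5 and Pik3ap1 included), 4 rose and 1 fell with LPS (5 and 1 after rescaling), and 1 rose and 3 fell from LPS to Met + LPS. Pik3r2, an alternative partner of the catalytic subunits that Pik3r1 binds, fell with LPS (-1.39, adjusted p = 1.3e-05), from 19.6 and 20.4 to 7.11 and 6.96 TPM, while Pik3r1 rose. Pik3r6, like Pik3r5 a partner of the gamma subunit, went from 15.0 and 16.5 to 29.8 and 29.1 TPM with LPS and to 18.0 and 19.0 TPM in Met + LPS libraries, and passed the test in both comparisons (0.86 and -0.64). Of class II and class III PI3K, 3 of 3 tested fell with LPS, where 60.1% of all genes fell (29.5% after rescaling), with Pik3c3 (Vps34), the class III catalytic subunit that acts in autophagy, at -1.24 and its partner Pik3r4 at -0.90, and 0 of 3 passed for Met + LPS vs. LPS.

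Among Akt kinases and their regulators (11 tested), 3 rose and 6 fell with LPS (6 and 1 after rescaling), and 2 rose and 3 fell from LPS to Met + LPS. Prr5l, which associates with the mTOR complex that phosphorylates Akt, rose with LPS by 1.79, and Mlst8, a core subunit of both mTOR complexes, fell (-1.63). The Akt phosphatase Phlpp2 rose with LPS (1.12) and fell from LPS to Met + LPS (-0.55). Of 11 Akt targets, 1 rose and 10 fell with LPS (2 and 5 after rescaling), where 60.1% of all genes fell (29.5% after rescaling), and 3 rose and 1 fell from LPS to Met + LPS. Foxo3, a transcription factor that Akt keeps out of the nucleus, was at 68.4 and 69.5 TPM in untreated, 2.33 and 2.52 TPM in LPS and 11.2 and 9.72 TPM in Met + LPS libraries. Its log2 fold changes were -4.35 (SE 0.08, adjusted p = 3.8e-08) and 1.74 (SE 0.08, adjusted p = 2.0e-05), the largest in size of all the listed genes in each comparison. Gsk3b, a kinase that Akt inhibits, was at 46.9 and 47.6, then 32.3 and 32.3, then 64.8 and 63.1 TPM, and rose from LPS to Met + LPS by 0.96. Tbc1d1, a Rab GTPase-activating protein that Akt phosphorylates, rose with LPS (1.68) and fell from LPS to Met + LPS (-0.50).

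Of the 3-phosphatases and 5-phosphatases (12 tested, Inpp5d included), 1 rose and 9 fell with LPS (4 and 3 after rescaling), beside 60.1% of all genes that fell (29.5% after rescaling), and 2 rose and 4 fell from LPS to Met + LPS. The only rise of this list with LPS was that of Inpp5b (0.48), Synj2 fell most (-1.89), and Inpp5k fell most from LPS to Met + LPS (-0.49). Of the 4-phosphatases and other phosphoinositide phosphatases (12 tested), 3 rose and 4 fell with LPS (7 and 3 after rescaling), and 3 rose and 2 fell from LPS to Met + LPS. Mtmr14, a phosphatase of the myotubularin family, rose with LPS from 67.7 and 73.4 to 299 and 308 TPM (2.09) and fell in Met + LPS libraries (-0.32), whereas its relatives Mtmr3 (0.74) and Mtmr7 (0.76) rose from LPS to Met + LPS and Mtmr4 fell with LPS (-1.75). Of the kinases that make the substrates of PI3K and related lipids (11 tested), 3 rose and 6 fell with LPS (4 and 4 after rescaling), and 1 rose and 2 fell from LPS to Met + LPS. Pip5k1a rose (1.06) and Pip4k2b fell (-1.22) with LPS, and from LPS to Met + LPS Pip4k2c rose (0.31) and Pikfyve fell (-0.79).

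Of scaffolds and kinases upstream of PI3K (17 tested), 5 rose and 9 fell with LPS (7 and 4 after rescaling), and 5 rose and 7 fell from LPS to Met + LPS. The adaptors Gab2 (0.85) and Irs2 (0.76), which recruit PI3K, and the ubiquitin ligase Cblb (1.53) rose from LPS to Met + LPS. Cblb was at 112 and 111 TPM in untreated, 25.8 and 26.5 TPM in LPS and 80.2 and 74.5 TPM in Met + LPS libraries, so that the LPS libraries were lowest without overlap. The adaptor Gab3 fell with LPS (-2.27), from 9.90 and 10.1 to 1.38 and 1.20 TPM. The Src family kinase Fgr rose with LPS (1.28) and fell from LPS to Met + LPS (-1.09), at a low level of at most 6.05 TPM. The adaptor Dok2 fell in both comparisons (-0.79 and -1.05).

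**Figure D4:**
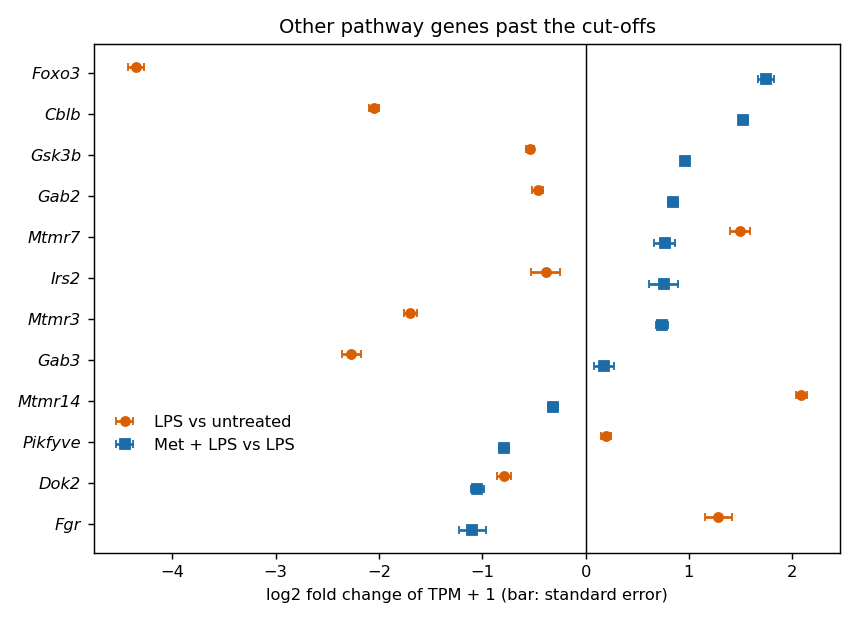
Log2 fold change of TPM + 1 (x axis, with bars for the SE) for LPS vs. untreated (circles) and Met + LPS vs. LPS (squares) of the 12 listed genes outside the 9 that passed the study's cut-offs in either comparison. Foxo3 has the largest values, -4.35 and 1.74, and the squares of Pikfyve, Dok2 and Fgr lie at -0.79, -1.05 and -1.09. Values are from TPM as deposited, where 6.08% and 8.28% of all genes passed these cut-offs. For LPS vs. untreated, 1 of the listed genes outside the 9 passed upward and 3 downward. After rescaling these were 3 and 1.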

How the data were processed

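RNA-seq of poly-A RNA from 6 BMDM libraries was analysed. The authors aligned reads to GRCm38 with STAR 2.6.1d and counted them per gene with featureCounts (Subread 1.6.3), and deposited TPM values per library, without pooling. How counts became TPM is not given in the sources used here. Genes reaching 1 TPM in 2 or more libraries were tested with limma 3.58.1 (R 4.3.3) on log2(TPM + 1), which understates changes of low genes, using lmFit and eBayes with a trend, all 6 libraries and no covariate. The fit was also run on simulated reads with changes in the Met + LPS group only. That run does not bear on the calls that rescaling changed. Reads were recovered from TPM and GENCODE exon lengths. For values under 1000 reads, 96.9% to 97.2% were whole within 0.02. Tables were made in Python 3.11.15. The members and gene lists were chosen with earlier results of these data known. Genes outside the 9 are named if past the study's cut-offs or highest or lowest of their list in LPS vs. untreated or Met + LPS vs. LPS among genes past the test, or nearest in pattern. A few genes that this rule names are not reported here. Other settings tried were 0.1 as pseudocount, a minimum of 5 TPM or none, median-ratio scaling, only the compared groups, a replicate block, no trend, voom on the recovered reads and leaving out each library. Of the listed genes, Pik3c2b, Pik3c2g, Prr5 and Irs1 were under the filter and were not tested. Counting intervals are not given, since replicate spread is shown.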

Additional observations from a re-analysis of the deposited data

How the results depend on the processing

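Of 351 alternative log2 fold changes of the 9 genes, 324 kept their direction and their side of the threshold, 17 lost the call, 7 gained it and 3 reversed. With median-ratio scaling, and with voom on recovered reads plus that scaling (chosen after seeing the data), 2 genes in place of 4 fell with LPS. The reversals were those of Pik3ap1 for LPS vs. untreated, 0.36 with median-ratio scaling and 0.39 with voom plus scaling, and of Pik3cd, 0.0054 with voom plus scaling. For Met + LPS vs. LPS, 1 gene in place of 2 rose without a filter, with only the 2 groups compared and without a trend, and 1 to 2 rose and 3 to 4 fell when a library was left out, where the lone library of a group is assumed to vary like the others. In this comparison 7 genes in place of 5 fell with voom on recovered reads and 6 with a minimum of 5 TPM. With voom plus median-ratio scaling 5 fell, as in the main fit. The cause of these differences in count was not tested. Deviations of same-numbered libraries from their group means were nearly uncorrelated over all tested genes (correlations between -0.0037 and 0.028). Such a value cannot show whether libraries were paired, since an effect on few genes would not move it. After LPS, a fit with a replicate block called 4 genes higher and 4 lower, as without the block. It called 2 and 5 between Met + LPS and LPS, and 3 and 5 between Met + LPS and untreated, also as without it. With 2 libraries a group, differences near the threshold, such as those of Pik3ca and Pik3r1 between Met + LPS and LPS, remain uncertain.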
